A study of Drosophila melanogaster with 3 samples.

Results

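Binding of the ecdysone-induced nuclear receptor Eip75B was examined at 10 genes of the Hippo growth control pathway (yki, wts, hpo, sav, ex, kibra, ft, ds, fj and sd), chosen by name among the 13945 protein-coding genes on the 6 chromosome arms. The choice was made with earlier results of these data known, so the shares of all genes set beside the counts are descriptive only. The data were ChIP-seq peak lists from whole Drosophila melanogaster prepupae, males and females pooled, of unknown age. The animals carried an eGFP exon in an intron of Eip75B (strain Eip75B-MiMIC-GFP), so the endogenous gene makes a GFP fusion, and the chromatin was precipitated with an antibody against GFP. The 3 biological replicates form a single group without a second condition, and an input or mock precipitation was not analysed here. In whole animals, a site occupied in fewer cells and a site with weaker binding per cell cannot be told apart.

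The authors deposited 30000 regions per replicate and 30000 for the pooled replicates, both with background regions among them. They also deposited 7803 optimal peaks, listed after IDR, a filter on the agreement of peak ranks between replicates. These were the 7803 strongest regions of the pooled list, so an optimal peak need not recur in every replicate. Read numbers are not given with the lists, and depth is therefore unknown. Each region has a summit and a signal, which is the peak caller's own value without a stated unit. Signals were read only within a list, and replicates were compared by rank, where rank 1 is the highest signal. A summit was assigned to a gene when it lay in the gene body or within 5 kb of it. For each replicate, the 7803 regions of highest signal, equal in number to the optimal peaks, were taken as its top list.

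The Hippo pathway limits organ size. The kinase Hippo, with its scaffold Salvador, activates the kinase Warts, which phosphorylates the coactivator Yorkie (yki) and keeps it out of the nucleus. Free of that restraint, Yorkie joins the DNA-binding TEAD protein Scalloped (sd) and switches on growth and survival genes. Expanded (ex) and Kibra feed into the kinases from the apical cell cortex. The giant cadherins Fat (ft) and Dachsous (ds), whose binding is tuned by the Golgi kinase Four-jointed (fj), feed in from cell contacts. The pathway is best known in the imaginal discs, the larval tissues that give rise to adult appendages and other adult structures.

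Of the 10 Hippo genes, 8 had an optimal summit in the body or within 5 kb, while 6975 of all 13945 protein-coding genes did (50%). A summit in the gene body was present at 5 of the 10, against 15.2% of all genes. That share was not matched for span. The 5 (wts, ex, kibra, ft and ds) span 16995 bp or more. With all genes split by span into 5 classes of similar size, the middle class spans 1717 to 2838 bp. A summit within 1 kb of the gene's own transcription start was present at 6 of the 10 (yki, hpo, ex, kibra, ft and ds), against 23.6% of all genes. The 8 genes shared 53 summits, of which 29 lay in a gene body, 19 upstream and 5 downstream. These were unevenly spread, since ds with 14, wts and kibra with 10 each and ex with 9 held 43 of the 53 (81.1%). The genes sav and sd had no optimal summit.

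Counts were similar in the replicates. The top lists of replicates 1, 2 and 3 held 52, 53 and 50 summits in the Hippo windows (51.7 ± 1.53, SD, n = 3). They gave 10, 9 and 9 genes with a summit in the window and 7, 7 and 5 genes with a summit within 1 kb of their own start. No share of all genes is given for single replicates. All but sd, 9 of the 10 genes, had a window summit in the top list of every replicate, against 43.9% of all genes. Of the 53 optimal summits, 37 (69.8%) lay in a top-list region of all 3 replicates, 12 in 2 and 4 in 1, while 65.2% of all 7803 optimal summits were in all 3. Neighbouring summits can lie in the same replicate region. With overlapping regions merged, 35 of 48 summits were in all 3, and no share of all summits is given for that count.

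**Figure D1:**
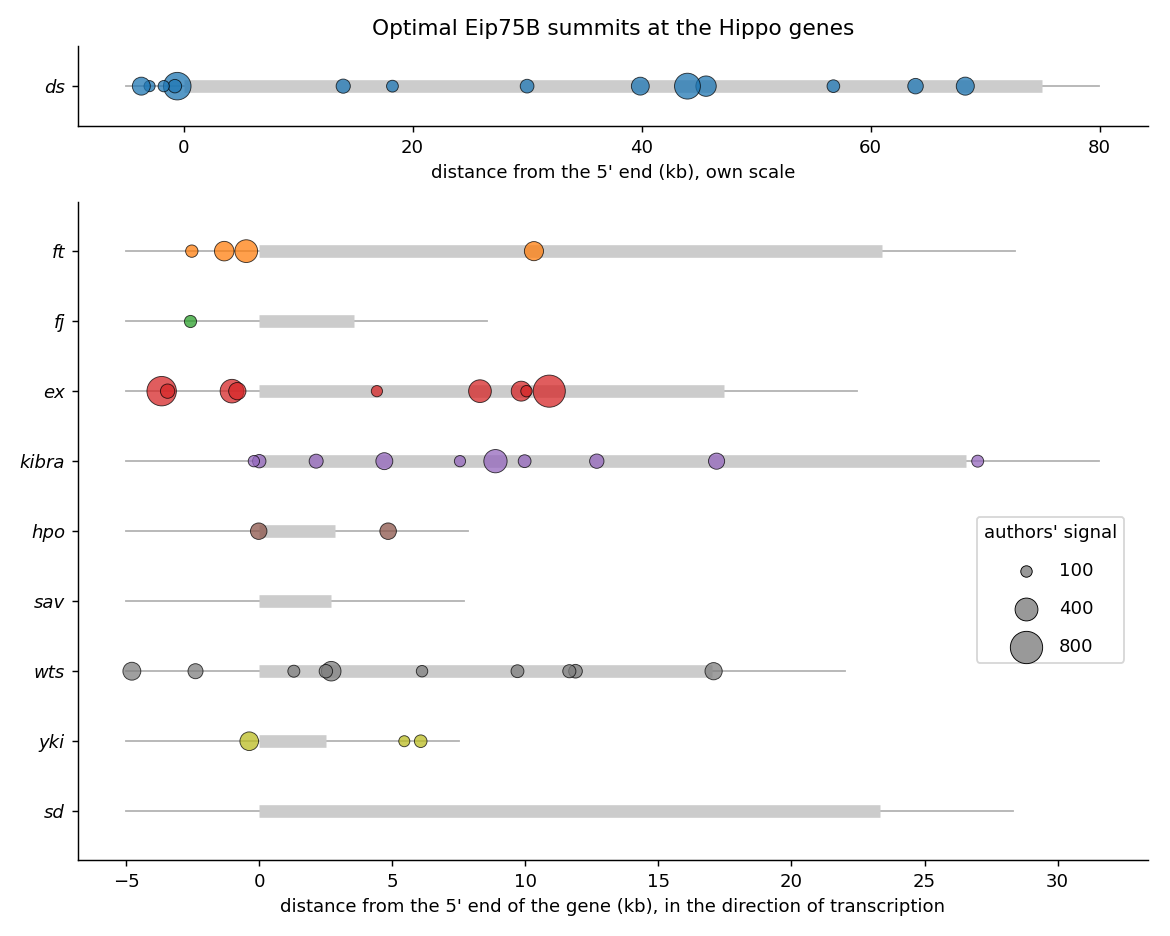
Optimal summits along the Hippo genes, by distance in kb from the 5' end in the direction of transcription, with ds on a scale of its own above the others. Grey bars are gene bodies, thin lines the 5 kb on either side, and circle area grows with the authors' signal. The largest circles are at ex and ds, and sav and sd have none.

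The strongest summit of each of ex, ds, kibra, ft and wts follows with the bases around it, with the next strongest of ex and of ds, because these carry the highest signals of each gene. Sequences are from the dm6 (Release 6) reference, plus strand, 5′ to 3′, 101 bases each, and the capital letter marks the summit base.
ex intron, chr2L:442074-442174: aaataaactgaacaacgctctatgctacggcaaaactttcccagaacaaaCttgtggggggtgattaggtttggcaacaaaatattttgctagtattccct
ex upstream, chr2L:427506-427606: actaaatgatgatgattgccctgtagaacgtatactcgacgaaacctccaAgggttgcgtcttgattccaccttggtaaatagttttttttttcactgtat
ds upstream, chr2L:715483-715583: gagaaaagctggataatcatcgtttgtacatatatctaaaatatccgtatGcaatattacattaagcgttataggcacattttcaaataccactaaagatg
ds intron, chr2L:670932-671032: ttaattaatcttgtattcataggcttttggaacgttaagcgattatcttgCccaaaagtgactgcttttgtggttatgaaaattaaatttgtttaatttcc
kibra intron, chr3R:14715336-14715436: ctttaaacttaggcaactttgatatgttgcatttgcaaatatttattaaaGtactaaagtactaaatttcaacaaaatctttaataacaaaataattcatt
ft upstream, chr2L:4222238-4222338: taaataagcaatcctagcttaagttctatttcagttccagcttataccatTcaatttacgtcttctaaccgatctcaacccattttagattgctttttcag
wts intron, chr3R:30803867-30803967: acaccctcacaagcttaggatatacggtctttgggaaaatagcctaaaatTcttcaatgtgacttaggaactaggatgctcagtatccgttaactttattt
None of the 7 stretches held AGGTCA, the core site that many nuclear receptors bind, or any of the other motifs searched, on either strand.

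Motif matches were few at the Hippo summits as a whole. Within 50 bp of the summit and on either strand, AGGTCA was found at 1 of 53 Hippo summits (1.89%) and 2.51% of all optimal summits, with 0 and 1.97% in windows of the same width 300 bp to the left. TAGGTCA was found at 0 of 53, against 0.743% of all summits, with 0 and 0.320% to the left. GGAATG, the site of Scalloped and its TEAD relatives, was found at 3 (5.66%), against 3.20% of all summits. In the windows 300 bp to the left it was more frequent, at 6 Hippo windows (11.3%) and 5.00% of all. GAGAG, the core of the GAGA factor site, was found at 6 (11.3%), against 12.2%, and was likewise more frequent in the windows to the left, at 12 (22.6%), against 16.0%. TATCGATA, the palindromic DREF site, was found at 2 (3.77%), against 0.871%, with 0 and 0.256% to the left. TAGGTCA contains AGGTCA, and a palindrome matches both strands at once. The bases within 50 bp had a median GC content of 33.7% at the Hippo summits and 32.7% at all summits.

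The only AGGTCA and 1 of the GGAATG matches were in ds and ex and belong to weak summits, shown with the motif in capitals (dm6, plus strand, 5′ to 3′; the first motif reads TGACCT because it is on the minus strand).
ds weak upstream, chr2L:717902-718002: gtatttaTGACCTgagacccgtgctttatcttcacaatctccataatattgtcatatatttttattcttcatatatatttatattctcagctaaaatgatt
ex weak intron, chr2L:435596-435696: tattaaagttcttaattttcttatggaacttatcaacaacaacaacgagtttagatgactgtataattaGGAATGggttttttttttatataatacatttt
The ds summit had signal 94.7 and rank 7620, and ranked 10533, 5767 and 11691 in replicates 1, 2 and 3, so it reached the top list of replicate 2 alone. The ex summit had signal 96.3 and rank 7473, and ranked 6999, 7521 and 8200.

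At kibra the start itself carried a summit and a match to the DREF motif. The 100 bases upstream of its start held TATCGATA at 2 places, marked in capitals (dm6, minus strand, 5′ to 3′).
kibra upstream, chr3R:14724262-14724361: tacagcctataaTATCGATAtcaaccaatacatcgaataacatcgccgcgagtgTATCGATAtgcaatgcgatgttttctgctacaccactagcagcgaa
The motif was present in 6.20% of the 100-base upstream windows of all 13945 genes, and in none of those of ex, ft and ds. The other Hippo summit with TATCGATA was in the yki window, 14 bp from the start of Rap2l (rank 7759). A match is a description of letters and not a measured site of any factor.

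Expanded, a FERM-domain protein of the apical cortex and itself a well-known transcriptional target of Yorkie, had the strongest summit of the 10 genes. The gene (FBgn0004583, chromosome 2L, 431227 to 448701, plus strand) held 9 summits, 5 of them in introns and 4 upstream, and 565 of all genes had a stronger best summit. The intronic summit at 442124, 10897 bp from the start, had signal 791.6 and rank 218. In replicates 1, 2 and 3 it had signals of 248.9, 258.1 and 276.9 and ranks of 270, 219 and 198. All replicates thus placed it among their 1000 strongest regions. The start of crq, 9178 bp away, was nearer to this summit than that of ex.

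A second strong ex site lay 3671 bp upstream, with signal 664.4 and rank 343 in the optimal list and ranks of 274, 318 and 533 in the replicates. Nearer the start, a summit at 1029 bp had rank 859 and replicate ranks of 1163, 754 and 1067. Its neighbour at 828 bp, in the same deposited region, had rank 2445 and replicate ranks of 4831, 3766 and 21938. The summit at 828 bp is the one that puts ex among the genes with a summit within 1 kb of their start, and replicate 3 did not have it in its top list.

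Kibra, a WW-domain scaffold that acts with Expanded and Merlin, had 10 summits along its length (FBgn0262127, chromosome 3R, 14697689 to 14724261, minus strand), 7 of them in introns. The strongest, 8875 bp into the gene, had signal 415.4 and rank 911, with ranks of 768, 936 and 1065 in replicates 1, 2 and 3. The replicates placed it close together. A weaker summit sat 3 bp from the kibra start (signal 137.7, rank 4887; replicate ranks 3399, 2710 and 4297), and another 205 bp upstream had rank 7251 and was rank 19289 in replicate 2. Of the 10 summits, 5 were in the top list of all 3 replicates. The last, 26999 bp from the kibra start, lay 30 bp from the start of the downstream neighbour Meltrin.

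Dachsous, the cadherin that acts as ligand of Fat, had 14 summits (FBgn0284247, chromosome 2L, 640013 to 714983, minus strand), the most of the 10 genes, and only 35 of all genes (0.251%) had more. Its strongest summit was upstream, 550 bp from the start, with signal 582.4 and rank 460. Signals there were 213.2, 177.6 and 191.4 in replicates 1, 2 and 3, and ranks were 418, 579 and 472. An intronic summit 44001 bp from the start followed, with signal 512.8, rank 623 and replicate ranks of 573, 576 and 746. In total 9 of the 14 were in introns and 5 upstream, and 4 of the intronic ones were nearer to the start of CG2839 than to that of ds. A summit at 756 bp upstream, next to the strongest, was unsteady, with ranks of 13626 and 2783 in replicates 1 and 2 and no region in replicate 3.

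Fat, the receptor of Dachsous, had 4 summits (FBgn0001075, chromosome 2L, 4198404 to 4221796, minus strand). The strongest lay 492 bp upstream of the start with signal 397.2 and rank 1007, and ranked 765, 1245 and 1024 in replicates 1, 2 and 3. A summit 1319 bp upstream had signal 292.4 and an intronic one 10321 bp from the start had 280.1. In the top lists of all replicates were 3 of the 4, and the nearest start to each of the 4 was that of ft.

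Warts, the kinase that acts directly on Yorkie, had 10 summits but none within 1 kb of its own start (FBgn0011739, chromosome 3R, 30789625 to 30806619, minus strand). The strongest, in an intron 2702 bp from the start, had signal 293.4 and rank 1661, with signals of 111.6, 88.3 and 100.7 and ranks of 1463, 2078 and 1615 in the replicates. Among the 10, 8 were in the top list of all 3 replicates, but these are not 8 separate replicate regions. The summits 11883 and 11651 bp from the start lay in the same region in each replicate (ranks 6125, 5797 and 3225). A pair upstream lay in cindr, 1 of them 401 bp from the cindr start. At the other end of the gene, a summit beyond the 3' end (signal 227.0) had zfh1 as its nearest start, 6288 bp away.

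Hippo and Salvador, the kinase and its scaffold, are short genes. At hpo (FBgn0261456, chromosome 2R, 19493996 to 19496856, minus strand) a summit lay 23 bp upstream of the start, with signal 207.8, rank 2813 and ranks of 3104, 2450 and 3566 in replicates 1, 2 and 3. A similar summit on the other side of the gene, signal 209.1, was 72 bp from the start of Rep. The gene sav (FBgn0053193, chromosome 3R, 23058609 to 23061304, minus strand) had no optimal summit and no region in the pooled list. Each replicate nonetheless had 1 top-list region in the window, with ranks of 5876, 6177 and 4839 and signals of 41.2, 43.1 and 47.4. Their summits lay 37, 13 and 13 bp from the start of p53 and 7185, 7209 and 7209 bp from that of sav. Such regions were rare, since 48 of the 5449 regions shared by the top lists of all replicates (0.881%) had no region in the pooled list.

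Four-jointed, the Golgi kinase that phosphorylates Fat and Dachsous and whose gene is a Yorkie target, had 1 summit (FBgn0000658, chromosome 2R, 18232761 to 18236311, plus strand). It lay 2604 bp upstream with signal 114.3 and rank 6124, and ranked 7151, 7193 and 5934 in the replicates. The start of CG46388 was nearer, at 1408 bp.

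Yorkie and Scalloped, the transcriptional pair at the end of the pathway, had 3 and 0 optimal summits. All 3 in the window of yki (FBgn0034970, chromosome 2R, 24065975 to 24068485, minus strand) were nearest to the start of another gene. The strongest was 379 bp upstream of yki and 107 bp from the start of Gpat4, whose 5' UTR holds it (signal 266.3, rank 1922; replicate ranks 1594, 3093 and 1917). The others lay 11 bp from the start of RpL39 and 14 bp from that of Rap2l. A summit in the yki window therefore cannot be ascribed to yki from its position.

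Scalloped (FBgn0003345, chromosome X, 15804370 to 15827682, plus strand) has 7 annotated starts and had regions only below the optimal threshold. The pooled list held 9, of which 6 were within 1 kb of an own start, and the best, at 15805022, had signal 65.5 and rank 11151. Replicates 1, 2 and 3 held 7, 12 and 7 regions, and their best ranks were 7130, 9140 and 9544. Replicate 1 alone had regions of the sd window in its top list, 2 of them. The stronger (rank 7130) lay outside the sd body, 122 bp from the start of PGRP-LE and 1279 bp from an sd start. The other lay in the sd body, 546 bp from an sd start, and had rank 7800, close to the end of the top list. Among the 375 genes within 20% of its span, 24.8% had no optimal summit, and the median was 2.

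**Figure D2:**
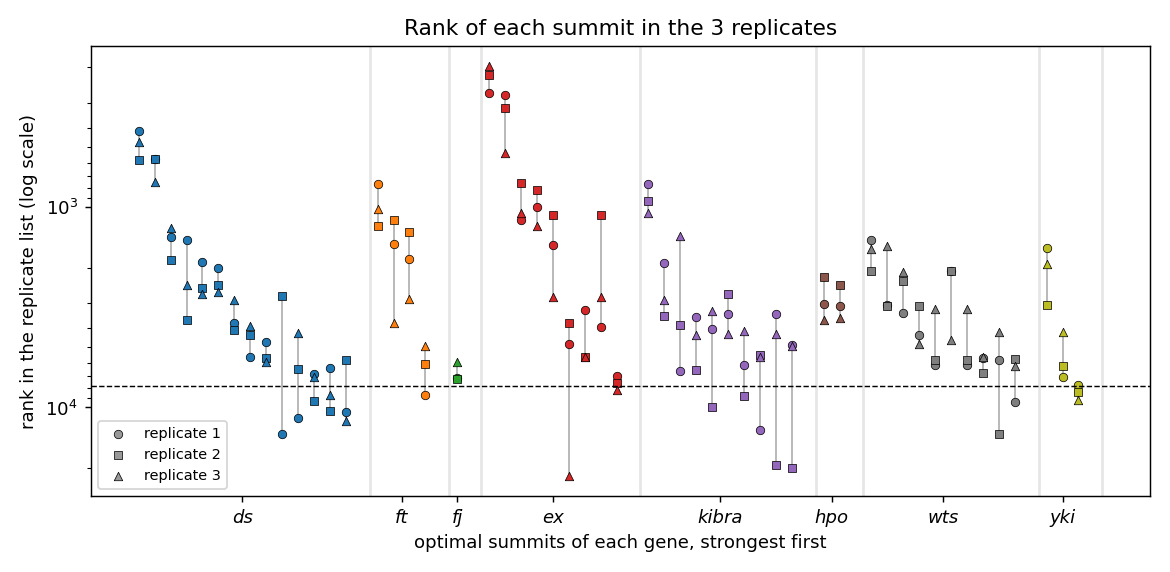
Rank of each optimal Hippo summit in replicates 1 (circle), 2 (square) and 3 (triangle), on a log scale with the strongest rank at the top, ordered within each gene from the strongest optimal signal. The dashed line is the end of the top list at rank 7803. The 6 summits among the 1000 strongest, at ex, ds and kibra, keep a highest rank of 1163 or better in every replicate, while single weaker summits of ex and kibra reach ranks of 21938 and 20127.

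The ratio of the highest to the lowest replicate rank had a median of 1.67 over the 52 summits with a region in every replicate. It was 1.39 for the 6 among the 1000 strongest optimal summits, at most 1.95, and 1.79 for the 26 ranked below the strongest 3901. With the optimal list split by signal into 4 equal classes, from the strongest, the Hippo windows held 14, 12, 14 and 13 summits. Of these 14, 11, 10 and 2 were in the top list of all replicates, against 96.0%, 93.1%, 59.9% and 11.9% of all optimal summits in the same classes. The Hippo summits were thus spread over the whole range of signal.

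By place, introns held 29 of the Hippo summits (54.7%), against 54.6% of all optimal summits, and intergenic sequence 19 (35.8%), against 35.4%. Annotated 5' UTRs held 5 (9.43%), against 8.38%, and coding exons and 3' UTRs none, against 0.538% and 1.09%. Of the 53, 13 (24.5%) lay within 1 kb of any start, while 42.4% of all optimal summits did. Long gene bodies such as that of ds fill much of the Hippo windows, so these shares are not like for like. The nearest start belonged to the Hippo gene itself for 36 (67.9%) and to another gene for 17. In the windows of ds, kibra, wts, ex and ft, 18 summits lay over 10 kb from the gene's own start.

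Long genes had more summits in general. Over all 13945 genes, span and number of summits had a Spearman rho of 0.287, a description across genes that share lists and are not replicates, and 70.8% of genes spanning 6458 bp or more had a summit. Of the Hippo genes 6 were that long. Among the 493 genes within 20% of the span of wts, 7 (1.42%) had at least its 10 summits, and among the 481 near ex, 9 (1.87%) had at least its 9. For kibra the share was 4.62%, for ds 9.92% and for ft 29.9%, while for the short genes hpo, yki and fj it was 24.2%, 10.2% and 51.4%.

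**Figure D3:**
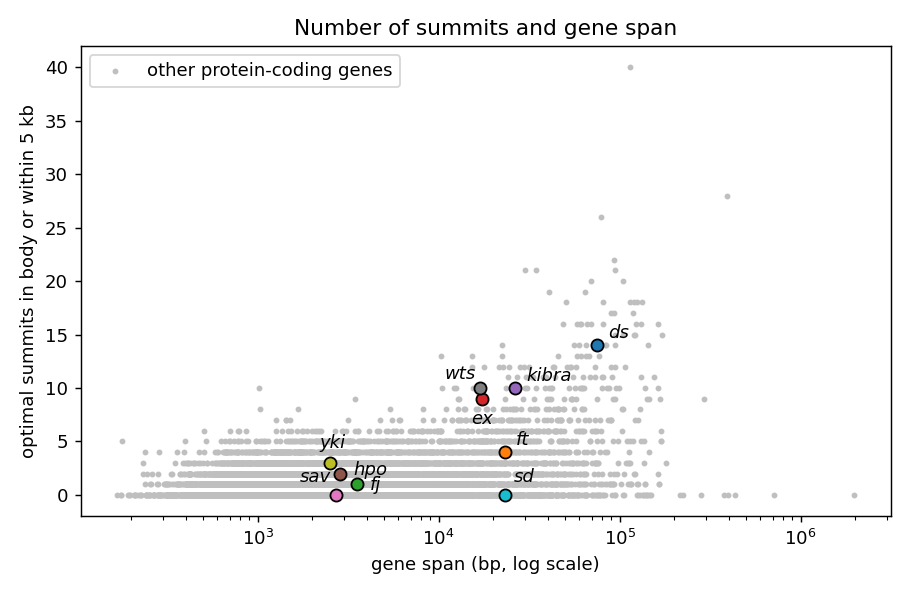
Optimal summits in the body or within 5 kb of each gene against gene span in bp on a log scale, for the Hippo genes (coloured and named) and all other protein-coding genes (grey). wts, ex, kibra and ds sit high for their span, and sav and sd are at 0.

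Other genes of the pathway were described from lists grouped by role, also chosen with earlier results of these data known. A signal is that of the strongest summit in the window, which need not belong to the gene named. Of 19 further cassette members and upstream regulators, 13 had a summit in the window, against 50% of all genes, and 9 within 1 kb of an own start, against 23.6%. The highest signals were at msn (545.5), a kinase that activates Warts, mats (364.1), the Mob cofactor of Warts, and Mer (336.8), the partner of Expanded and Kibra, while Fgop2 and jub had no summit. The msn summit lay outside the msn body, 33555 bp from the msn start and 1593 bp from that of Spn. Of 7 genes of the Fat branch, 5 had a summit, against 50% of all genes, led by Fbxl7 (825.5), an F-box protein, app (304.9), a palmitoyltransferase, and dachs (278.8), an unconventional myosin, while Dlish and lft had none. The dachs summit was 168 bp from the start of prg and 2497 bp from that of dachs. Of 13 polarity and cortex genes, 8 had a summit, a share near the 50% of all genes, led by the apical determinant crb (1001.9), then ASPP (451.9) and the kinase gene aPKC (444.2), while alpha-Spec and beta-Spec had none. The aPKC summit was 620 bp from the start of ckn and 2095 bp from that of aPKC.

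Among 6 partners of Yorkie and Scalloped, 3 had a summit, the same share as the 50% of all genes, with a highest signal of 460.2 at Tgi, a corepressor of Scalloped. That summit lay in an intron of Tgi, but the start of Spt20 was nearer (2636 bp) than that of Tgi (4444 bp). The others were hth (276.1), a homeodomain partner of Yorkie with 16 summits, and vg (218.5), the wing partner of Scalloped, while mop and tsh had none. The only summit of vg lay outside the gene, 4084 bp from its start and 113 bp from that of Nmda1. Outputs of the pathway had the highest median number of summits of these lists. Of the 9 outputs, 8 had one, against 50% of all genes. Their median was 6, against 3.5 for the Hippo genes and 1 for all protein-coding genes. All outputs but upd1 spanned 6458 bp or more, and 70.8% of genes that long had a summit. No comparison matched for span was made for these lists. Signals were highest at Myc (911.2), the growth regulator, Diap1 (705.3), the inhibitor of caspases, and dlp (660.5), a glypican, while upd1, a cytokine gene, had none. The dlp summit was 20143 bp from the dlp start, and the start of CG43121 was slightly nearer (19693 bp). The cell cycle gene E2f1 had 19 summits, the most in these lists.

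**Figure D4:**
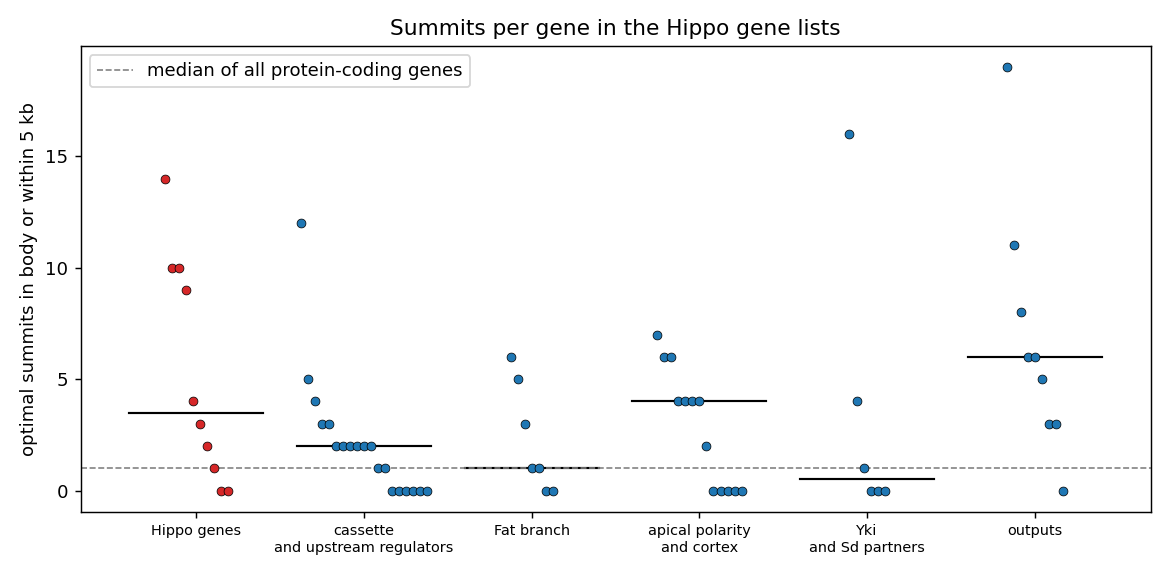
Optimal summits in the body or within 5 kb for each gene of the Hippo genes (red) and of the other pathway lists (blue), with each list's median as a black bar and the median of all protein-coding genes as a dashed line at 1. The outputs have the highest median, 6.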

How the data were processed

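The authors deposited lists of regions with a signal per region and a summit offset, for 3 replicates, for the replicates pooled, and for the optimal peaks after IDR. Per the file notes, each list came from read alignments and 1 further file. Aligner, caller, IDR threshold and depth are not given in the sources used. Of the builds, the dm6 lists were used, and the dm3 lists were not used here. Per the labels, chromatin was sonicated to 200 to 800 bp. The optimal list was checked to be the 7803 strongest regions of the pooled list, with 0 exceptions.

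Genes and starts came from Ensembl release 115 (BDGP 6.54) and sequence from the Release 6 assembly. Python 3.11.15, numpy 2.4.6, pandas 2.3.3 and scipy 1.17.1 were used, and assignment was tested on simulated summits. No test was run, since there is 1 group. Replicate numbers are those of the labels. All members were named, and of each other list the 3 with the highest signal and the first 2 alphabetically without a summit. The members and lists were chosen with earlier results of these data known. Alternatives covered the flank, the strictness of the list, each replicate left out, the top-list length, the motif window, and merging of overlapping regions.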

Additional observations from a re-analysis of the deposited data

How the results depend on the processing

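Of 59 alternative counts, 49 stayed within 1.5 times the reported one. Without the flank, 5 Hippo genes had a summit, with 29 summits, of which 21 were in the top list of every replicate. Using only the 3901 strongest optimal regions left 26 summits. With top lists of 3901 regions, 22 summits were in all 3. AGGTCA matched 0 summits within 25 bp, GGAATG 5 within 100 bp, GAGAG 13 within 100 bp and 2 within 25 bp, and TATCGATA 1 within 25 bp. Fewer summits follow from the narrower window or shorter list by construction. Leaving out each replicate in turn, with regions shared by the other 2, gave 9 genes with a summit in every case, 6 with one near a start, 42 to 46 summits and 39 to 43 shared summits. The last count is nearly fixed by construction, because the list was built from the same 2 replicates, and shows no stability. With 10 kb on either side sav gained a summit, giving 9 genes. No share of all genes is given beside the gene counts of these alternatives, including the 10 kb flank and the left-out replicates. A wider window can only raise that share. Merging overlapping regions gave 48 summits, and its use for motifs was chosen after seeing the data. No paired analysis was possible because there is 1 group. Depth is unknown, so sites below the optimal threshold, such as those at sd, cannot be called absent.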

Other observations

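Beyond the windows, the nearest optimal summit to sav was 9797 bp from the gene (rank 984, signal 402.1) and nearest to the start of CG17121. The nearest to sd was 15907 bp away (rank 4705), and the nearest further summit to ft was 60996 bp away, close to tutl (rank 314, signal 683.1).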
